A study of Homo sapiens with 8 samples.

Results

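The 8 genes CA9, CA12, CA2, SLC16A1, SLC16A3, BSG, SLC4A7 and SLC4A2 were taken by name from the 25435 genes of a read count table. They encode carbonic anhydrases, lactate carriers with their chaperone, and bicarbonate transporters. All 8 were in the table and all 8 passed the filter on low counts. They were measured in HGC27, an established human gastric carcinoma line that the labels describe as having no p53. The cells overexpressed the p53 mutant R175H, R248Q or R273H, or GFP as the control, with 2 mRNA libraries in each of the 4 groups. The R175H change unfolds the DNA-binding domain of p53, and the other 2 hit contacts between that domain and DNA. No source used here gives the vector, its promoter, or whether a group was 1 clone or a pool. The labels also do not say whether the 2 libraries of a group came from separate cultures. The p-values thus measure only the spread between these libraries, pooled over the 4 groups.

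Tumour cells that ferment glucose must get rid of lactate and protons. Monocarboxylate transporters carry lactate out together with a proton, and they reach the cell surface with the chaperone basigin, the product of BSG. Carbonic anhydrases interconvert carbon dioxide with bicarbonate and a proton. CA9 and CA12 have their active site outside the cell, and CA2 has it in the cytosol. Sodium-coupled bicarbonate entry through SLC4A7 raises the pH inside the cell, while the anion exchanger SLC4A2 swaps bicarbonate for chloride. CA9 is a textbook target of the hypoxia-inducible factor HIF, and SLC16A3 is also known as a hypoxia-responsive gene.

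The 250 bases upstream of the start site are shown for CA9, the member with the largest change, and for SLC16A3, another gene known to respond to low oxygen. They come from RefSeq on GRCh38.p14, which is not the hg19 build to which the reads were aligned. RefSeq start sites were found for 6 of the 8 genes, which leaves CA2 and SLC16A1. Capitals mark ACGTG or GCGTG, the 2 core forms that HIF is known to bind, read on either strand, so that CACGT and CACGC are their reverse complements. The CA9 stretch lies on the plus strand at chr9:35673678-35673927, and the SLC16A3 stretch on the plus strand at chr17:82228792-82229041.
CA9: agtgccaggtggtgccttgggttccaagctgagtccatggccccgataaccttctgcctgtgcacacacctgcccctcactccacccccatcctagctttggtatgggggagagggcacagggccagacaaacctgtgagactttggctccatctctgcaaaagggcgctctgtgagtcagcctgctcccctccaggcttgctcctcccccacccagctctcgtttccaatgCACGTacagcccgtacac
SLC16A3: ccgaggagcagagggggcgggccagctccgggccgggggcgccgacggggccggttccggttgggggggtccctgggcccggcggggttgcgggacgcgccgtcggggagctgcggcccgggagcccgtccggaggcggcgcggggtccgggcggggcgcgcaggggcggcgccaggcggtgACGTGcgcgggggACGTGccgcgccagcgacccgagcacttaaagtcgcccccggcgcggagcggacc
The CA9 stretch held 1 match, CACGT, between 18 and 14 bases before the start site. This SLC16A3 stretch, 1 of 5 alternative start sites listed for the gene, held 2 matches of ACGTG, the first of them 68 bases before the start. It is shown because it holds ACGTG, which the other 4 stretches of the gene lack; 2 of those held no match of either form, 1 held 1 and 1 held 3. Among 35116 RefSeq stretches of this length, 43.2% held either form and 18.5% held ACGTG or its reverse complement. CA12, SLC4A7, SLC4A2 and BSG also held matches, at most 1, 2, 7 and 6 in a stretch, counted on either strand. The sequence CACGTG reads as a match on both strands and so counts as 2. These stretches of SLC4A2 and BSG held 3 and 1 of it. A match describes the letters only.

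Total counts were 6800463 to 11788035 per library, lowest in R175H replicate 1. Values are CPM, counts scaled to an equal library total, and adjusted by TMM, a factor that matches libraries in their bulk of genes, and 3 counts were 0.256 to 0.443 CPM. Of 12 epithelial and gastric markers, 5 had no count in any library (KRT20, TFF1, TFF2, GKN1 and PGC) and the sum of all 12 was at most 4.11 CPM, so that differentiation markers of gastric epithelium were all but absent. The acid pump genes of parietal cells, ATP4A and ATP4B, were also at or near 0, with 4 counts and 0 counts over the 8 libraries. GFP replicate 1 stood apart by transcript length: the median deviation of 2487 well-counted transcripts of 5000 nt or more was -0.18 (log2), against -0.005 in GFP replicate 2.

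Levels of different genes are compared per kilobase of transcript. In GFP cells the most abundant member was BSG, at 742 ± 24 CPM per kb (SD, n = 2), followed by SLC4A2 at 136 ± 8.6 and SLC16A1 at 44.9 ± 0.58. CA2 had 15.4 ± 0.27 CPM per kb, CA9 7.50 ± 0.81, CA12 4.15 ± 0.34, SLC4A7 4.09 ± 0.27 and SLC16A3 0.851 ± 0.030. CA12 and SLC4A7 lay within their SD of each other, whereas the other neighbours in this order were further apart than their SDs. SLC16A3, which encodes the lactate exporter MCT4, was thus the lowest member, with 38 and 39 counts in the GFP libraries.

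**Figure D1:**
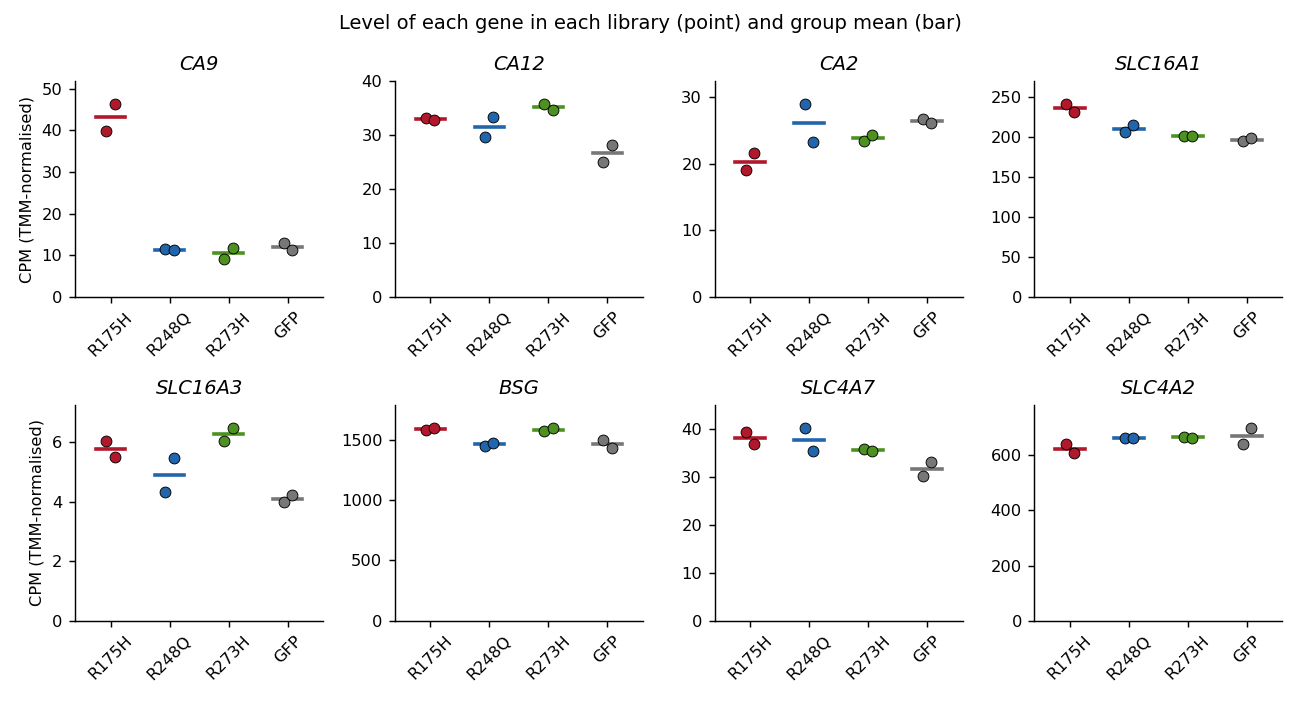
TMM-normalised CPM of the 8 genes in each library (points, 2 per group) with the group mean (bar), each panel with its own axis from 0. CA9 stood at 40.0 and 46.3 CPM in R175H and at no more than 13.1 CPM in any other library, while no other panel shows a separation of that size.

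CA9 rose in R175H cells and was close to the GFP level with the other mutants. This membrane-bound carbonic anhydrase had 40.0 and 46.3 CPM in the R175H libraries, against 13.1 and 11.2 CPM in the GFP libraries. No R175H library overlapped a GFP library. The log2 fold change was 1.84 ± 0.13 (SE), or 3.57-fold, with an adjusted p of 2.77e-07 (edgeR's quasi-likelihood test, adjusted by Benjamini-Hochberg over 13213 genes). In R248Q cells CA9 had 11.5 and 11.3 CPM, and in R273H cells 9.07 and 11.9 CPM, which overlapped the GFP libraries. Its log2 fold change against GFP was -0.09 (95% interval -0.42 to 0.23) in R248Q and -0.21 (-0.54 to 0.12) in R273H. These intervals do not reach the value in R175H, and the direct comparison gave -1.93 ± 0.12 for R248Q over R175H and -2.05 ± 0.13 for R273H over R175H (SE, edgeR adjusted p = 1.06e-07 and 8.66e-08). The CA9 calls in R175H held in all 18 alternatives, between 1.72 and 1.96 over GFP. The 12 epithelial markers summed to 1.01 to 1.48 CPM in R175H, 3.92 to 4.11 in R248Q and 2.04 to 3.24 in R273H, against 2.11 to 2.47 CPM in GFP. KRT8, a keratin and the 1 marker of the 12 that passed the filter, made up most of the sum in R248Q, with 2.81 and 3.34 CPM there, 0.443 and 0.336 in R175H, 1.24 and 2.48 in R273H, against 1.34 and 1.11 CPM in GFP. KRT8 was called higher in R248Q over GFP (log2 fold change 1.32 ± 0.35, SE, edgeR adjusted p = 0.0359) and not called in R175H or R273H over GFP. In R248Q and R273H over R175H it was called higher as well (2.97 ± 0.49 and 2.255 ± 0.55, SE, edgeR adjusted p = 0.0014 and 0.0319). Its R175H values stood at 3 counts a library. The part of these markers in the CA9 difference was not tested. In bulk RNA, more cells with CA9 and more CA9 RNA per cell cannot be told apart.

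Reads of CA9 can meet those of ARHGEF39, a gene on the opposite strand that shares 643 of the 1670 exon bases of CA9 in GENCODE 29. ARHGEF39 had 39.5 and 42.0 CPM in R175H, against 40.3 and 35.7 CPM in GFP, a log2 fold change of 0.10 (edgeR adjusted p = 0.539). The neighbour was not called. No source used here gives the strand setting of the counting, and the share of reads from the overlap in either gene was not tested.

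CA12, the second extracellular enzyme, was not called in any mutant, though its libraries separated from GFP. It had 33.2 and 32.9 CPM in R175H, 29.7 and 33.3 in R248Q, 35.7 and 34.6 in R273H, against 25.1 and 28.2 CPM in GFP. All 6 mutant libraries lay above both GFP libraries. Here and for the other genes, how many of all tested genes separate in this way was not counted. Log2 fold changes were 0.31 ± 0.10 in R175H, 0.24 ± 0.10 in R248Q and 0.40 ± 0.10 in R273H (SE, edgeR adjusted p = 0.0598, 0.147 and 0.0568), and all 3 comparisons share the GFP libraries. Without GFP replicate 2 all 3 were called (0.40, 0.33 and 0.49). With no filter beyond 1 count R175H (0.31) and R273H (0.41) were called. Over all 18 alternatives the value ran from 0.22 to 0.40 in R175H, 0.10 to 0.33 in R248Q and 0.32 to 0.49 in R273H. The transcript of CA12 is 6413 nt long, and long transcripts as a class were low in GFP replicate 1. No pair of mutants was called in CA12, with 95% intervals that reached from -0.27 (R248Q over R175H) to 0.35 (R273H over R248Q).

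CA2, the abundant cytosolic enzyme, was lowest in the R175H libraries, short of the threshold. It had 19.0 and 21.5 CPM in R175H, against 26.7 and 26.1 CPM in GFP, and these libraries did not overlap. This was a log2 fold change of -0.37 ± 0.12 (SE, edgeR adjusted p = 0.0646). It was called without GFP replicate 2 (-0.39) and with no filter beyond 1 count (-0.37). R248Q had 28.9 and 23.2 CPM and R273H 23.4 and 24.3 CPM, with log2 fold changes of -0.02 and -0.15 over GFP that were not called. CA2 was 0.35 ± 0.12 (log2, SE) in R248Q over R175H (adjusted p = 0.0896), which 6 of 18 alternatives called.

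CA9 was the largest part of the 3 enzymes' summed level in R175H. Per kb of transcript, CA9 made up 60.3% and 61.8% of the summed CA9, CA12 and CA2 level in R175H, 24.9% and 27.2% in R248Q, 22.6% and 27.3% in R273H, against 29.3% and 26.1% in GFP. The sum itself was 41.0 and 46.3 CPM per kb in R175H and lay between 24.8 and 28.6 in the other 6 libraries. CA2 was the highest of the 3 per kb in GFP, R248Q and R273H, and CA9 in R175H. This share is a description and rests on the CA9 difference given above.

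**Figure D2:**
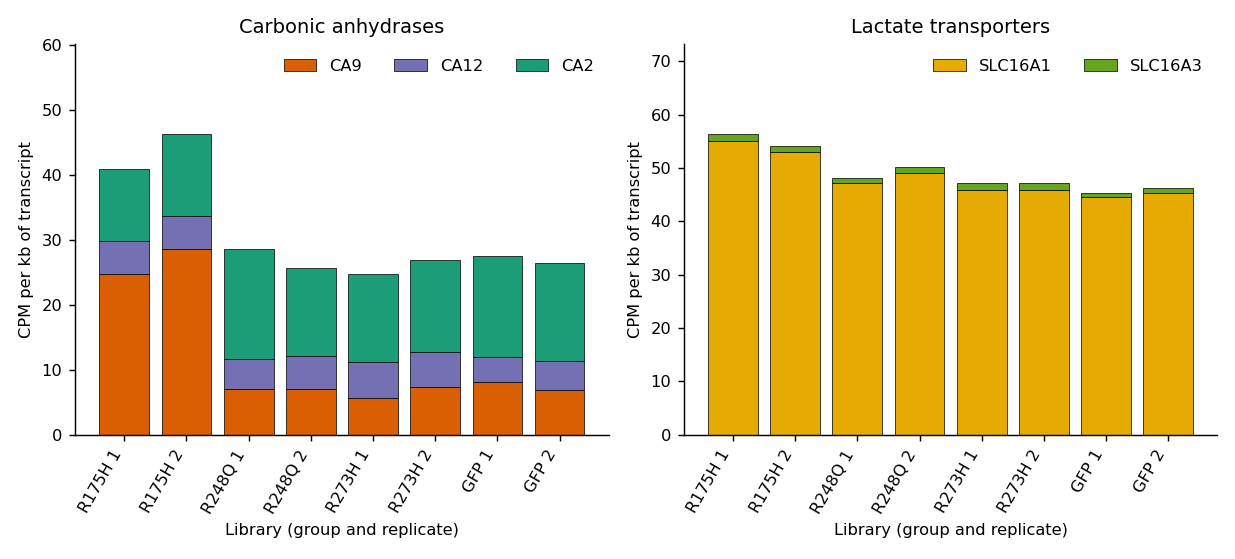
Level per kb of transcript in each library, stacked over the 3 carbonic anhydrases (left) and the 2 lactate transporters (right). The CA9 segment takes 60.3% and 61.8% of the left-hand bars in R175H and no more than 29.3% elsewhere, and SLC16A3 takes no more than 2.85% of any right-hand bar.

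Of the lactate carriers, SLC16A1 rose in R175H. It encodes MCT1, which moves lactate in either direction. SLC16A1 had 241 and 232 CPM in R175H, 206 and 214 in R248Q, 201 and 201 in R273H, against 195 and 198 CPM in GFP. Both R175H libraries lay above the other 6. The log2 fold change over GFP was 0.27 ± 0.06 in R175H (SE, 1.20-fold, edgeR adjusted p = 0.00585), 0.10 (95% interval -0.02 to 0.22) in R248Q and 0.03 (-0.09 to 0.15) in R273H. The R175H call was lost without R175H replicate 1 (0.24) and when the fit held R175H and GFP alone (0.26). R273H over R175H was -0.24 ± 0.06 (SE, edgeR adjusted p = 0.0246), a call that 8 of 18 alternatives lost, among them DESeq2 (-0.23, adjusted p = 0.058) and each fit without 1 library of R175H (-0.21 and -0.26), R248Q (-0.23 both times) or R273H (-0.23 both times). R248Q over R175H was -0.17 ± 0.06 (SE), with an adjusted p of 0.0818 that missed the threshold.

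SLC16A3, the proton-coupled lactate exporter of glycolytic cells, stayed at low counts in every group. It had 6.05 and 5.50 CPM in R175H, 4.35 and 5.48 in R248Q, 6.05 and 6.49 in R273H, against 4.01 and 4.21 CPM in GFP. Behind these values stood 38 to 76 counts a library. Its log2 fold change was 0.48 (95% interval 0.02 to 0.94) in R175H, 0.26 (-0.18 to 0.70) in R248Q and 0.61 (0.19 to 1.03) in R273H (edgeR adjusted p = 0.171, 0.494 and 0.194). In R175H the upper bound of 0.94 lies below the lower bound of 1.56 for CA9. All 6 mutant libraries were above the GFP libraries, and the same GFP libraries stand behind all 3 values. SLC16A3 made up 2.22% and 2.10% of the summed SLC16A1 and SLC16A3 level per kb in R175H, 1.87% and 2.26% in R248Q, 2.65% and 2.85% in R273H, against 1.83% and 1.89% in GFP. Exons of SLC16A3 share 482 of 8995 bases with CSNK1D on the opposite strand, which had 176 and 183 CPM in R175H and 193 and 202 in GFP.

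BSG, whose product escorts both carriers to the membrane, was by far the most abundant member. It had 1587 and 1596 CPM in R175H, 1454 and 1479 in R248Q, 1571 and 1601 in R273H, against 1499 and 1433 CPM in GFP. The R175H and R273H libraries lay above those of GFP and R248Q, whose ranges overlapped. Over GFP, BSG was 0.12 ± 0.05 (log2) in R175H and 0.11 ± 0.05 in R273H (SE, edgeR adjusted p = 0.127 and 0.328), and 0.00 (95% interval -0.10 to 0.10) in R248Q. Without GFP replicate 1, R175H (0.15) and R273H (0.15) were called, as they were with each library's smooth trend on transcript length removed (0.15 and 0.15). R273H over R248Q was 0.11 ± 0.05 (SE, edgeR adjusted p = 0.577). Per kb, BSG was 14.2 to 17.1 times the sum of SLC16A1 and SLC16A3 in the 8 libraries.

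Neither bicarbonate transporter was called. SLC4A7, a sodium bicarbonate cotransporter with a transcript of 7757 nt, had 39.5 and 36.9 CPM in R175H, 40.3 and 35.4 in R248Q, 35.8 and 35.5 in R273H, against 30.2 and 33.2 CPM in GFP. Over GFP, SLC4A7 was 0.27 ± 0.10 (log2) in R175H, 0.26 ± 0.09 in R248Q and 0.17 ± 0.09 in R273H (SE, edgeR adjusted p = 0.092, 0.112 and 0.473). All 6 mutant libraries were above GFP, and long transcripts as a class were low in GFP replicate 1. With the length trend removed the values were 0.14 in R175H, 0.05 in R248Q and 0.06 in R273H, and without GFP replicate 2 R175H (0.33) and R248Q (0.32) were called.

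SLC4A2 encodes a chloride and bicarbonate exchanger. It had 643 and 607 CPM in R175H, 664 and 662 in R248Q, 667 and 663 in R273H, against 640 and 700 CPM in GFP. The GFP libraries spanned all the others except R175H replicate 2. The log2 fold change was -0.10 (95% interval -0.22 to 0.02) in R175H, -0.01 (-0.13 to 0.10) in R248Q and -0.01 (-0.13 to 0.11) in R273H. In R175H it was called lower without GFP replicate 1 (-0.17) and with the length trend removed (-0.16). CDK5, on the opposite strand, shares 331 of the 7590 exon bases of SLC4A2 and had 44.1 and 48.7 CPM in R175H, against 55.3 and 50.2 CPM in GFP.

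**Figure D3:**
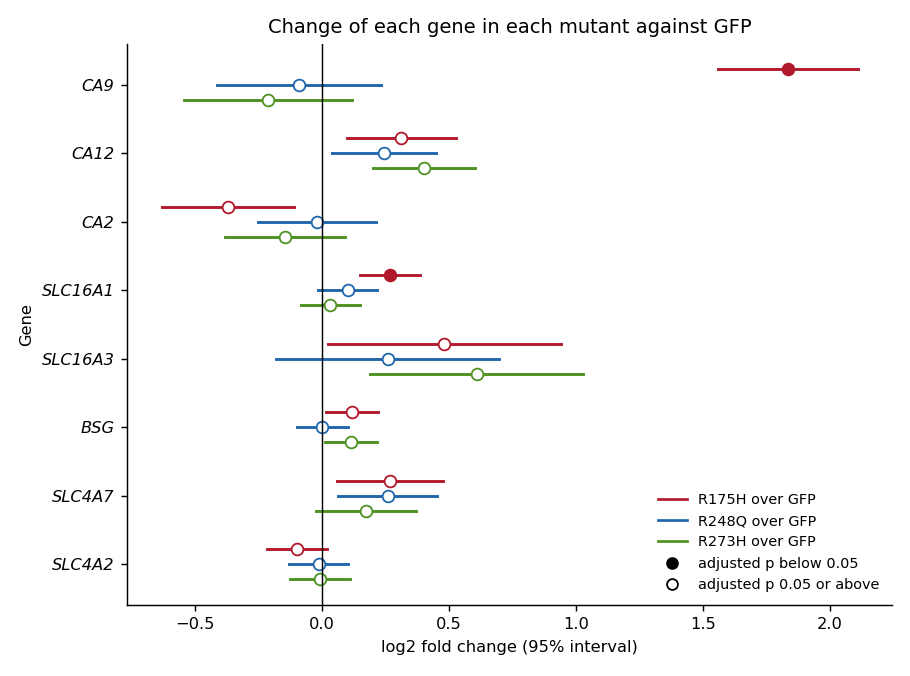
Log2 fold change of each gene in each mutant over GFP, with its 95% interval from the edgeR fit; filled points passed an adjusted p of 0.05. The filled points are CA9 (1.84) and SLC16A1 (0.27) in R175H, and the CA9 intervals of R248Q and R273H cover 0.

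Counted over the 8 genes, R175H had 2 higher and 0 lower, with 6.39% of all 13213 tested genes called higher and 4.59% lower in that comparison. In either direction this background was 11.0%. R248Q over GFP had 0 members called, against 6.32% of all tested genes (4.88% higher and 1.44% lower). R273H over GFP also had 0, against 1.01% (0.757% higher and 0.250% lower). At an unadjusted p under 0.05 edgeR gave 7 members in R175H, 2 in R248Q and 3 in R273H over GFP, beside 26.2%, 22.5% and 12.7% of all tested genes. DESeq2 and limma-voom called 2 in R175H and 0 in R248Q and R273H. The median log2 fold change of the 8 was 0.27 in R175H, 0.05 in R248Q and 0.07 in R273H, beside 0.01, -0.01 and 0.00 over all tested genes. Between mutants, R248Q over R175H had 1 lower, CA9, where 7.17% of all genes were called, 3.22% higher and 3.95% lower. R273H over R175H had 2 lower, CA9 and SLC16A1, where 3.63% were called, 1.41% higher and 2.22% lower. R273H over R248Q had 0 called, where 0.151% of all genes were called (0.00757% higher and 0.144% lower), and DESeq2 and limma-voom also called 0. At an unadjusted p under 0.05, 4 members passed in R248Q over R175H, 2 in R273H over R175H and 1 in R273H over R248Q, beside 21.9%, 17.1% and 8.06% of all tested genes. The count in R175H rests on CA9 and SLC16A1.

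Over the 8 libraries, the genes most like CA9 in log2 CPM were BHLHE40 (Pearson r = 0.991), NDUFA4L2 (0.990) and KIAA2013 (0.988), out of 10338 genes compared. BHLHE40 encodes a transcriptional repressor of the circadian system, and NDUFA4L2 a mitochondrial protein. In R175H over GFP their log2 fold changes were 0.98, 1.79 and 0.27, and in the other mutants all 3 lay between -0.08 and 0.00. The genes most like SLC16A1 were DSC2, a desmosomal cadherin (r = 0.983), NR1D2, a circadian nuclear receptor (0.980), and the sterol synthesis gene HMGCS1 (0.975). These correlations rest on 8 libraries in 4 groups and are a description.

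The wider set held 103 genes of acid and bicarbonate handling in 8 lists, of which 63 passed the filter. In R175H over GFP 2 were called higher and 3 lower, in R248Q 2 higher and 1 lower, and in R273H 1 higher and 0 lower. As a share this was 7.94%, 4.76% and 1.59% of the 63, against 11.0%, 6.32% and 1.01% of all tested genes. The shares rest on 5, 3 and 1 called genes and lay near that background.

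LDHA, the lactate dehydrogenase subunit that favours lactate, rose in R175H. It had 1876 and 2009 CPM in R175H, 1300.3 and 1288 in R248Q, 1356 and 1359 in R273H, against 1471 and 1409.5 CPM in GFP. The R175H libraries stood above the other 6, and the log2 fold change over GFP was 0.43 ± 0.05 (SE, edgeR adjusted p = 5.3e-05). LDHA was -0.59 ± 0.05 in R248Q over R175H and -0.52 ± 0.05 in R273H over R175H (SE, both called). Of 3 tested lactate dehydrogenases 1 was higher and 0 lower in R175H, beside 6.39% higher and 4.59% lower of all tested genes. LDHB had 1341 and 1368 CPM in R175H, against 1614 and 1401 CPM in GFP. Its log2 fold change of -0.15 ± 0.06 (SE, edgeR adjusted p = 0.113) was not called.

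Of 4 other carbonic anhydrases that passed the filter (of 12 listed), CA11 rose in R175H. Of all tested genes 6.39% were called higher there. CA11 is a secreted family member that lacks catalytic activity. It had 38.4 and 44.8 CPM in R175H, 29.8 and 30.7 in R248Q, 30.7 and 35.1 in R273H, against 30.8 and 28.4 CPM in GFP. Its log2 fold change was 0.50 ± 0.10 (SE, edgeR adjusted p = 0.00574) and was lost without R175H replicate 2 (0.37). CA14, another membrane enzyme with an extracellular active site, had 23.6 and 24.7 CPM in R175H, against 24.4 and 25.1 CPM in GFP. CA5A and CA10 had no count in any library.

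Of 11 tested genes of sodium-proton exchange, 1 was higher and 0 lower in each of R248Q and R273H over GFP. That gene was SLC9A3R1, a scaffold that binds exchangers. Of all tested genes 4.88% were called higher and 1.44% lower in R248Q, and 0.757% and 0.250% in R273H. SLC9A3R1 had 80.1 and 72.6 CPM in R248Q, 81.6 and 78.8 in R273H, against 62.2 and 63.3 CPM in GFP. Both mutants lay above GFP without overlap. The log2 fold changes were 0.28 ± 0.08 in R248Q and 0.35 ± 0.08 in R273H (SE, edgeR adjusted p = 0.0406 and 0.0364), and either call was lost without any 1 library of a mutant (0.21 to 0.36 in R248Q and 0.33 to 0.38 in R273H). Both calls were also lost with DESeq2 (adjusted p = 0.123 and 0.102) and with only the groups compared (adjusted p = 0.121 and 0.158 by edgeR). In all, 9 of 18 alternatives lost the R248Q call and 10 the R273H call. R175H had 71.3 and 62.9 CPM of SLC9A3R1. Over R175H it was 0.19 ± 0.08 in R248Q and 0.26 ± 0.08 in R273H (log2, SE, edgeR adjusted p = 0.161 and 0.0812). Neither was called, though 5 and 6 of 18 alternatives called them.

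Of 23 tested subunits and accessory proteins of the V-ATPase, the pump that acidifies lysosomes, 2 fell in R175H and 1 in R248Q. Of all tested genes, 4.59% were called lower in R175H and 1.44% in R248Q. ATP6V0C, which forms the proton-carrying ring, had 164 and 169 CPM in R175H and 174.9 and 173.5 in R248Q, against 212 and 195 CPM in GFP. Its log2 fold change was -0.29 ± 0.06 in R175H and -0.22 ± 0.06 in R248Q (SE). The R175H call was lost without R175H replicate 1 (-0.27), and the R248Q call with any 1 library left out except GFP replicate 2 (-0.23 to -0.16). In all, 12 of 18 alternatives lost the R248Q call, and with the length trend removed its value was -0.10, for a transcript of 1175 nt; short transcripts as a class were high in GFP replicate 1. ATP6V0E1 had -0.31 ± 0.08 in R175H (SE), lost without GFP replicate 1 (-0.17), R175H replicate 1 (-0.31) or R175H replicate 2 (-0.30). In all, 5 of 18 alternatives lost this call. Over GFP it had -0.24 in R248Q and -0.21 in R273H, not called (edgeR adjusted p = 0.0766 and 0.261). No pair of mutants was called in ATP6V0E1. The list's median over GFP was -0.11 in R175H, -0.12 in R248Q and -0.10 in R273H, beside 0.01, -0.008 and -0.001 over all tested genes. The same GFP libraries stand behind each of these medians. Between mutants the list's median was 0.006 (R248Q over R175H), 0.013 (R273H over R175H) and 0.032 (R273H over R248Q). The part of GFP replicate 1 in the medians over GFP was not tested.

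Among 13 tested carriers of monocarboxylates and their partners, 1 was called higher in R248Q, beside 4.88% of all tested genes. This was SLC16A7, which encodes the pyruvate carrier MCT2. It had 22.4 and 22.5 CPM in R248Q, against 17.1 and 16.3 CPM in GFP, a log2 fold change of 0.43 ± 0.11 (SE). Its transcript is 11777 nt long, and with the length trend removed the value was 0.06 and not called. The call was also lost without R248Q replicate 1 (0.44) or replicate 2 (0.43). DESeq2 (adjusted p = 0.161) and edgeR with only the groups compared (adjusted p = 0.0688) lost it as well. In all, 6 of 18 alternatives did. SLC16A7 had 18.4 and 18.3 CPM in R175H and 21.1 and 18.2 in R273H, and no pair of mutants was called. EMB and NPTN, the other 2 known chaperones of these carriers, were not called in any mutant over GFP, and neither was any of the 6 other bicarbonate transporters that passed the filter. The same held for SLC36A1, the 1 tested gene among other proton pumps and channels, and for the 2 tested acid-sensing receptors, ASIC1 and ASIC3.

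**Figure D4:**
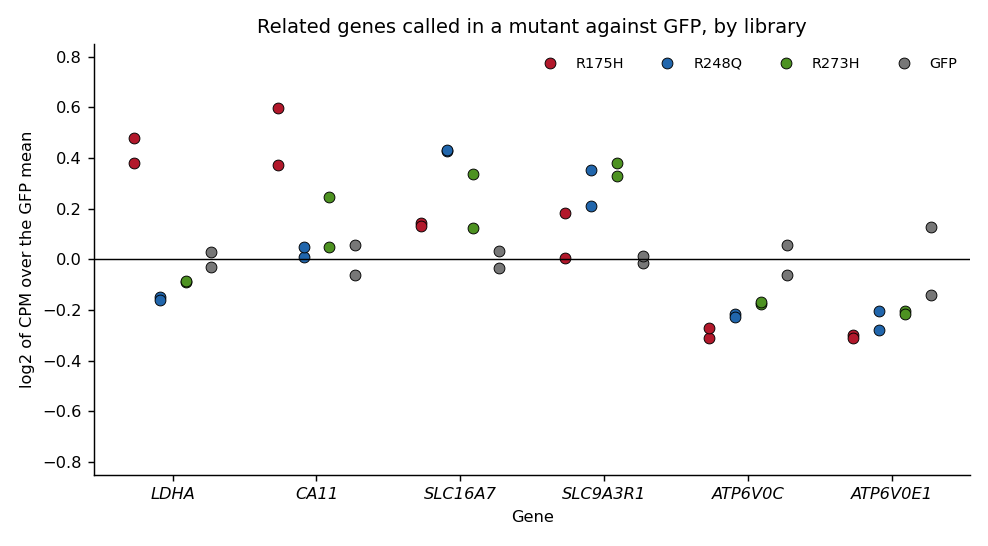
Log2 of CPM over the GFP mean in each library for 6 genes of the wider set that were called in a mutant over GFP. LDHA and CA11 are highest in the 2 R175H libraries, while the GFP points show the spread of the control itself.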

How the data were processed

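mRNA libraries of 8 HGC27 samples were prepared with a Kapa kit from 100 ng of total RNA, per the labels' protocols. Reads were handled with bcl2fastq and STAR 2.5 on hg19, per the submitters' processing notes. The authors deposited whole-number read counts for each gene symbol. No source used here gives the counting step, its annotation, strand setting or filters. The table holds 25435 genes, of which 6937 had no count.

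The analysis used edgeR 4.0.16 (R 4.3.3). Genes kept by filterByExpr (minimum count 10, minimum total 15) numbered 13213. TMM factors were 0.989 to 1.01. All 8 libraries entered 1 quasi-likelihood fit with 4 group means (4 residual degrees of freedom). Each mutant was compared with GFP and with each other mutant, 6 comparisons, and a gene was called where p, adjusted by Benjamini-Hochberg over all tested genes, was below 0.05. SE is the absolute log2 fold change over the square root of F. SD is between the 2 libraries of a group. Lengths are of a gene's longest principal GENCODE 29 transcript and covered 93.3% of tested genes. Where a gene had no principal transcript, the longest was used, protein-coding ones first.

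The members and lists were chosen with earlier results of these data known. The members were always named. Of the wider lists, called genes with a mean of at least 1 CPM were named, up to 4 per list and comparison with GFP. For members called over GFP, the 3 genes with the highest correlation (mean of at least 5 CPM, prior count 2) were named. Alternatives were DESeq2 1.42.0 and limma 3.58.1 (voom) in place of edgeR, RLE factors or library totals in place of TMM, filters at 1 count or at 1 CPM on average, a fit of the 2 groups compared, the replicate number as a block, leaving out each library, and a loess length trend (span 0.3) removed with all libraries or without GFP replicate 1. Some genes of the wider set, and the check of the overexpressed gene, are not reported here.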

Additional observations from a re-analysis of the deposited data

Results flagged for a closer look

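Among the members and the wider set, the effects of the mutants over GFP differed between mutants for 4 genes described above. The test was a direct edgeR quasi-likelihood test with Benjamini-Hochberg adjustment. CA9 was -1.93 ± 0.12 in R248Q over R175H and -2.05 ± 0.13 in R273H over R175H (log2, SE, adjusted p = 1.06e-07 and 8.66e-08, lower in 2 of 2 libraries each). LDHA was -0.59 ± 0.05 in R248Q over R175H and -0.52 ± 0.05 in R273H over R175H (adjusted p = 2.11e-06 and 1.03e-05). CA11 was -0.47 ± 0.10 in R248Q over R175H (adjusted p = 0.00913), and SLC16A1 was -0.24 ± 0.06 in R273H over R175H (adjusted p = 0.0246). The CA9 and LDHA differences held in all 18 alternatives. The others were lost in some of them, CA11 without R175H replicate 2 (-0.34), R248Q replicate 1 (-0.44) or R248Q replicate 2 (-0.48).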

How the results depend on the processing

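With 2 libraries a group, 1 library can decide a call. Of the 8 members, 2 were called in R175H over GFP. This became 4 with no filter beyond 1 count, 4 with the length trend removed, 4 with that trend removed and GFP replicate 1 left out, and 1 with only the groups compared, and it ran between 1 and 5 with 1 library left out. Without GFP replicate 1 it was 4, without GFP replicate 2 it was 5 and without R175H replicate 1 it was 1. CA9 was called in each of these. In R248Q over GFP the count of 0 became 2 without GFP replicate 2 (range 0 to 2 with 1 library left out). In R273H over GFP the count of 0 became 1 with no filter, with the length trend removed, and with that and GFP replicate 1 left out, and ran between 0 and 1 with 1 library left out (1 without either GFP library). In R248Q over R175H the count of 1 became 2 with no filter, 3 with the length trend removed, 4 with that and GFP replicate 1 left out and 4 with only the groups compared, and ran between 1 and 4 (4 without either GFP library). In R273H over R175H the count of 2 became 1 with DESeq2 and 1 with the replicate block, and ran between 1 and 2 (1 without any 1 library of a mutant). With the length trend removed and GFP replicate 1 left out it was 3. In R273H over R248Q the count of 0 became 1 with only the groups compared and ran between 0 and 1 (1 without either GFP library). Leaving out a GFP library also removes the difference between the GFP libraries from the pooled spread, which the comparisons between mutants use as well. The lone library of a group is then assumed to vary like the others. Libraries of a group differed most in GFP, where their chi-square per degree of freedom was 5.72. It was 1.6 in R175H, 1.21 in R248Q and 1.51 in R273H. The pooled spread does not take up this difference between groups. No member changed sign where either value was called, in any alternative run.

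Over all genes the calls were 1451 in R175H over GFP (538 to 2129, and 463 to 3392), 835 in R248Q over GFP (391 to 1439, and 226 to 3447), 133 in R273H over GFP (6 to 503, and 8 to 2258), 947 in R248Q over R175H (534 to 2573, and 231 to 2435), 479 in R273H over R175H (285 to 1933, and 117 to 1640) and 20 in R273H over R248Q (4 to 816, and 0 to 574). The first range in each is over the other alternatives, the second over libraries left out. For the 63 genes of the wider set the counts with 1 library left out were 2 to 17 in R175H, 0 to 15 in R248Q and 0 to 13 in R273H over GFP, where the highest was without GFP replicate 2. The cause was not tested. Deviations of libraries with the same replicate number correlated between -0.24 and 0.07 over pairs of groups, so that the numbers were not taken as pairs, and the replicate block changed no other count of members. With the block, calls were lost for SLC16A1 in R273H over R175H (-0.24), ATP6V0C in R248Q (-0.22) and SLC9A3R1 in R248Q (0.28) and R273H (0.35) over GFP, and SLC9A2 in R273H over R175H (-0.74).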

Other observations

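SLC9A2, which encodes the sodium-proton exchanger NHE2, is given here after its values were seen, since it was not called in any mutant over GFP. The R175H libraries had 10.8 and 8.75 CPM, those of R248Q 5.80 and 4.63 and those of R273H 6.05 and 5.55, against 6.17 and 7.76 CPM in GFP. Its log2 fold change was -0.89 ± 0.19 in R248Q over R175H and -0.73 ± 0.19 in R273H over R175H (SE, edgeR adjusted p = 0.00945 and 0.0386). The first call was lost without R175H replicate 1 (-0.75) or R248Q replicate 2 (-0.73), and the second in 8 of 18 alternatives, each library of a mutant left out among them (-0.89 to -0.59).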
